A study of Homo sapiens with 2 samples.

Results

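Antisense RNA genes are non-coding genes annotated on the strand opposite a protein-coding gene. The 4740 described here are the genes of the deposited count table that GENCODE 29 classes as antisense, that lie off chromosome Y and that keep 2 or more exons after the exons of all their transcripts are merged. They were 4740 of 58347 genes in the table, or 8.12%, and 703 further antisense genes had a single merged exon. The counts come from U2AF2 eCLIP of HEL, an established line of human erythroleukemia cells that carry erythroid and megakaryocyte traits. The 2 libraries are replicates of 1 group with no treatment. No genotype or other condition is given, and 1 tag of the labels names the cell line as U2AF2 while the sample source names HEL. In eCLIP, RNA is fixed to a protein by ultraviolet light, trimmed with an RNase, recovered with an antibody and sequenced. Input libraries were not analysed here, so no value is an enrichment over input.

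U2AF2 is the large subunit of U2AF. It binds the polypyrimidine tract, a stretch of C and U near the 3' end of introns, and so marks the 3' splice site for the spliceosome. A multi-exon antisense gene has 3' splice sites of its own, and its exons may also lie across the exons, introns and 3' splice sites of the gene on the other strand. A gene count takes reads that touch its exons. Where an antisense exon overlaps an opposite gene, it covers a defined piece of that gene, whichever RNA the reads came from. Levels are given as counts, as CPM (counts scaled to 1e+06 gene counts of the library) or, where genes of different length are compared, as CPM per kb of merged exon.

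The table held 995428 gene counts in replicate 1 and 1350116 in replicate 2, which were 2.66% and 2.60% of uniquely mapped reads. A gene with 0 counts could still have up to 3.01 CPM in the first library and up to 2.22 in the second, which is what 3 counts amount to, counting error only. Of the markers of HEL, the erythroid transcription factor gene GATA1 held 6 and 14 counts, the platelet integrin gene ITGA2B 0 and 2 and PF4 0 in both libraries, and of other cell types the B cell gene MS4A1 held 0 and 4 and the liver gene ALB 0 in both. These levels do not check the cell type, because the counted strand is not given in the sources used here. With strand ignored, STAR tallies a read in exons of 2 genes as ambiguous. The 256 members whose every exon base lay in exons of an opposite gene held 27593 and 34332 counts, against 17816 and 23938 reads in the whole ambiguous tally. Strand was therefore used in the counting wherever its annotation held both genes. Which strand was counted remains unknown, and for any member taken alone it is uncertain whether its reads came from its own RNA or from that of the opposite gene.

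The following sequences show what the leading members cover. Each is a 3' splice site of the opposite gene that lies inside an antisense exon, with 40 intron bases and 10 exon bases, read 5' to 3' on the strand of the opposite gene. The antisense transcript sequences of GENCODE 29 (GRCh38) were reverse complemented to obtain them. Of the 15 members with the most counts, 13 gave 1 site each, the one nearest the 5' end of the principal transcript of an opposite gene. Capitals mark the longest run of pyrimidines in the intron, before its final AG.
AL135999.1 over AP1G2, chr14:23566677-23566726, minus strand: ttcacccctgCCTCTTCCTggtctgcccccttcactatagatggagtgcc
AC009133.1 over MAZ, chr16:29810037-29810086, plus strand: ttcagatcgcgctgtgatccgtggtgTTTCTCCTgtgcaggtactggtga
C5orf66 over H2AFY, chr5:135343425-135343474, minus strand: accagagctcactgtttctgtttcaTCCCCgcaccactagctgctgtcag
AC006064.2 over CHD4, chr12:6583369-6583418, minus strand: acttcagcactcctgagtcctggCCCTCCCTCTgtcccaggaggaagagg
ZRANB2-AS1 over ZRANB2, chr1:71066925-71066974, minus strand: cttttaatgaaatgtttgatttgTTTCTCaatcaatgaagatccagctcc
AL135960.1 over TAL1, chr1:47225880-47225929, minus strand: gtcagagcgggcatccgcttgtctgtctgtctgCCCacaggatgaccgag
MCM3AP-AS1 over MCM3AP, chr21:46259082-46259131, minus strand: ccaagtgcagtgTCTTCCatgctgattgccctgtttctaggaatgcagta
AC245452.1 over TOP3B, chr22:21975798-21975847, minus strand: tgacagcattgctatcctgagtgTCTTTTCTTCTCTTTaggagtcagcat
AC022098.1 over ADGRL1, chr19:14170782-14170831, minus strand: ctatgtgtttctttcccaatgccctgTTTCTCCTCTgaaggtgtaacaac
AC092384.2 over CBFA2T3, chr16:88886133-88886182, minus strand: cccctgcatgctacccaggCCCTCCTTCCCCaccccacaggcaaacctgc
AC068888.1 over EIF4B, chr12:53039198-53039247, plus strand: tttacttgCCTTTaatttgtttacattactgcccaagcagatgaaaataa
AL138963.3 over TPT1, chr13:45340175-45340224, minus strand: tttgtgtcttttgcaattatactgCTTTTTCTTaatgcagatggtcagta
AC008894.2 over RAB8A, chr19:16125430-16125479, plus strand: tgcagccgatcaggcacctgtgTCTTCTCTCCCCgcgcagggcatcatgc

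The longest runs spanned 3 bases over TAL1 to 15 bases over TOP3B. Pyrimidines made up 60% of the 20 bases before the final AG at ZRANB2 and EIF4B and 85% at CHD4 and CBFA2T3. For contrast, 54 members with no count in either library covered a site whose tract held at least 80% pyrimidines, and the 4 of these with the longest exons are shown.
AL590999.1 over DAAM2, chr6:39883922-39883971, plus strand: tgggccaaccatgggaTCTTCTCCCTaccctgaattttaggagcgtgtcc
AC003958.2 over KRT37, chr17:41423835-41423884, minus strand: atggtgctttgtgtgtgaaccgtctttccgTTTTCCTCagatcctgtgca
AC097662.1 over COL4A3, chr2:227237928-227237977, plus strand: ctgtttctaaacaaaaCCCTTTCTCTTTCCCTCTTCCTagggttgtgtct
IGF2-AS over INS-IGF2, chr11:2147798-2147847, minus strand: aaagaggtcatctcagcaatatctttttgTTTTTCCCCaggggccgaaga

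KRT37 is a hair keratin gene and COL4A3 a basement membrane collagen gene. Their tracts held 85% and 100% pyrimidines, so a rich tract inside an exon was found in members without counts too. In all, 170 of the 1129 members that covered 1 or more opposite 3' splice sites held 0 counts in both libraries.

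Together the members held 246987 counts in replicate 1 and 329994 in replicate 2, or 24.6% ± 0.262 of all gene counts (SD, n = 2). Of the members, 1723 (36.4%) reached 10 counts in both libraries, a level called detected from here on, where the share over all genes of the table was 15.4%. Another 1309 members had no count in either library. The counts were concentrated, since 15 members held 16.4% and 100 members 42.5% of the members' counts. Members with 2 merged exons had a median of 5.86 CPM per kb (2241 genes), and the medians for 3, 4, 5 and 6 or more merged exons were 2.12, 1.64, 1.94 and 1.47. Median exon length rose along this series, from 537 bases to 648.5, 865, 1171 and 2536. The detected shares did not fall steadily, at 36.7%, 33.8%, 33.4%, 38.3% and 40.7%. Antisense genes with 1 merged exon, just outside the rule, had a median of 9.57 CPM per kb.

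The leading member was AL135999.1 (chromosome 14, 23561097 to 23568073, plus strand, GRCh38), with 5409 and 7503 counts. It lies opposite AP1G2, an adaptor subunit of vesicle transport, and JPH4, a junctophilin. Of its 3243 exon bases, 1704 lay in their merged inner exons, with 9 of their 3' splice sites inside. With principal transcripts, introns were the main part it covered. AC006064.4 (chromosome 12, 6537794 to 6538370, minus strand) had 3808 and 4531 counts. All its 422 exon bases lay in exons of the glycolytic enzyme gene GAPDH, 230 of them in the last exon, and the nearest 3' splice site of GAPDH was 41 bases from its exons. AC009133.1, with 3340 and 4309 counts, runs across 6 protein-coding genes including the zinc finger gene MAZ and the major vault protein gene MVP.

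AC006064.2 had 3070 and 4234 counts opposite CHD4, a nucleosome remodeler, with 5 of its 3' splice sites inside 2196 exon bases. ZRANB2-AS1 had 2829 and 4367 counts opposite ZRANB2, a zinc finger protein that takes part in splicing. Of its 967 exon bases, 419 lay in merged inner exons of that gene and the rest outside it. With the principal transcript of ZRANB2, introns were the main part covered. AL135960.1 (chromosome 1, 47225797 to 47230750, plus strand) had 2760 and 3925 counts and lies wholly within TAL1, a transcription factor of the erythroid and megakaryocytic lineages, with 3191 of its 4036 exon bases in introns.

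AC092384.2, with 2033 and 2612 counts, lies wholly within CBFA2T3, a corepressor that acts with TAL1 in erythroid cells. AP003352.1 had 2377 and 3330 counts opposite the ribosomal protein gene RPL30, and AL138963.3 had 1814 and 2201 opposite TPT1, an abundant translation-associated protein gene. For each of these 15 members the libraries were close, the ratio of replicate 2 to replicate 1 in CPM ranging from 0.900 for AC006064.4 to 1.17 for ZRANB2-AS1. All 15 had an opposite protein-coding gene over their exons.

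**Figure D1:**
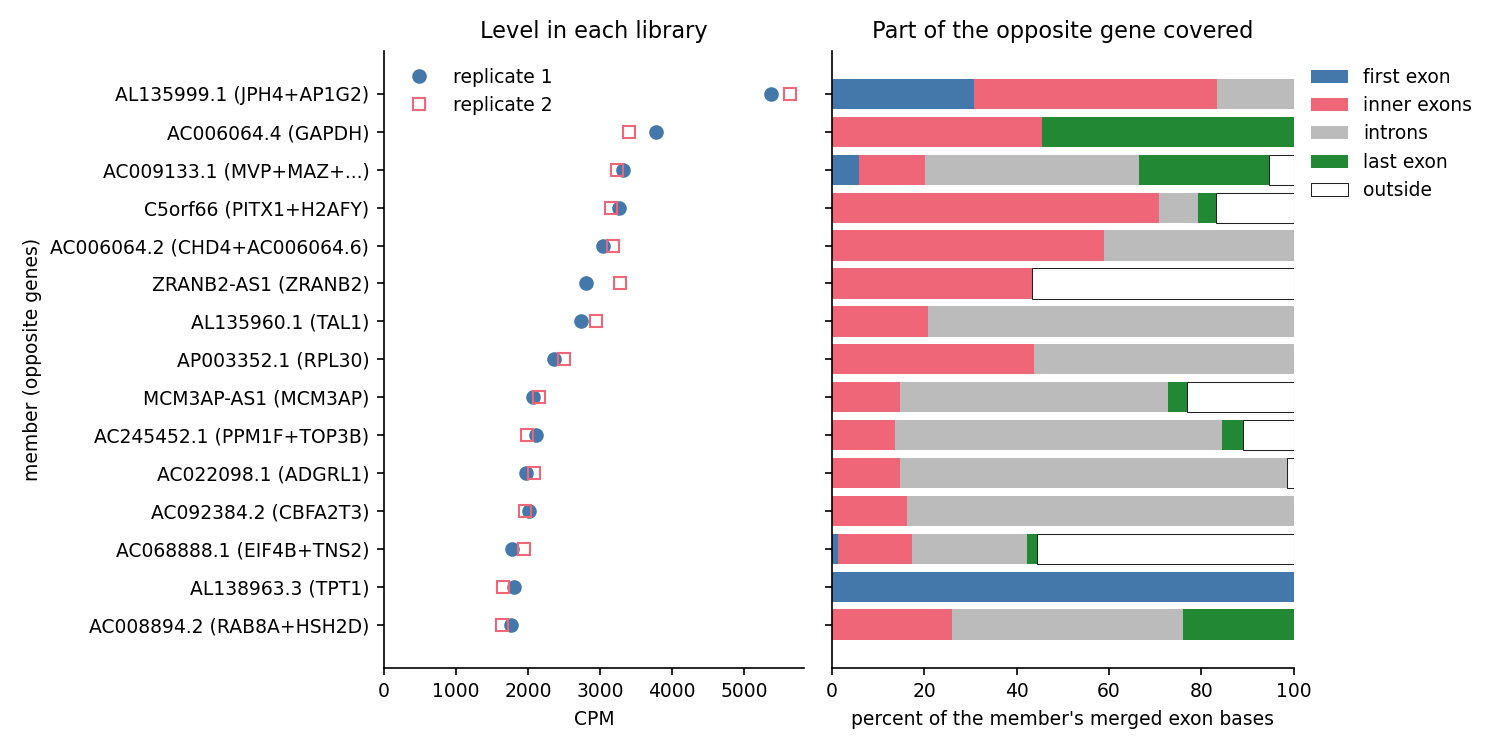
The 15 multi-exon antisense genes with the most counts, with the opposite protein-coding genes in brackets. Points on the left give CPM in replicate 1 and replicate 2, with means from 5497 for AL135999.1 to 1698 for AC008894.2. Bars on the right give the percent of each gene's exon bases that lie in first exons, inner exons, introns and last exons of the opposite genes or outside them, and most bars combine several parts. Parts are drawn from merged exons.

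Most genes opposite these members held fewer than 100 counts of their own in each library. GAPDH held 17 and 37 counts, ZRANB2 3 and 4, CHD4 5 and 9, TAL1 22 and 28 and TPT1 7 and 15. The exceptions were AP1G2 with 1297 and 1643, ADGRL1 with 353 and 457, MCM3AP with 286 and 399 and TNS2 with 274 and 386. Over the 3672 members with exactly 1 opposite gene that had a row in the table, 2265 held more CPM per kb than that gene and 1260 held less, with medians of 4.89 for the members and 0.490 for the opposite genes. Across these pairs the Spearman rho was 0.240, and across the 1422 pairs whose member was detected it was 0.0555. Each pair shares a locus and both libraries.

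The next question was which part of the opposite gene the antisense exons cover, and whether the level moved with it. Each member was put in the part that covers more of its exon bases than any other part. The parts were taken from the merged exons of all transcripts of the opposite gene. Exon bases outside opposite genes were not weighed, so the part can hold a minority of the exon bases. H1FX-AS1, for example, had 345 of its 3420 exon bases in its part. An opposite protein-coding gene lay over the exons of 4127 members, 3826 such genes in all, of which 634 had 2 or more members. Introns were the most common part with 2981 members, followed by the last exon with 455, inner exons with 348 and the first exon with 283. A further 60 lay over genes with a single merged exon, and 613 had no opposite protein-coding gene over their exons.

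Members over inner exons and over the last exon had the highest levels. The median over inner exons was 33.8 CPM per kb (32.1 in replicate 1 and 30.8 in replicate 2), and over the last exon it was 28.5 (28.98 and 27.1). It was 3.94 over introns (3.60 and 4.10) and 3.44 over the first exon (3.45 and 2.97). The inner exon median was 8.59 times that over introns (8.89 times in replicate 1, 7.498 times in replicate 2). The last exon median was 7.24 times that over introns (8.04 and 6.61). The medians over introns and the first exon rest on a few counts per gene, so these ratios depend on near-empty members. Among detected members the medians were closer, at 145 over inner exons, 79.9 over the last exon, 46.3 over introns and 46.5 over the first exon.

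Detected members were 56.9% over inner exons, 57.6% over the last exon, 36.9% over introns and 37.5% over the first exon. Quartiles were 1.09 and 167 CPM per kb over inner exons and 0 and 27.9 over introns, so the groups overlapped widely. The difference between inner exons and the last exon, a ratio of 1.19, depends on how parts are drawn. With the parts of 1 principal transcript per opposite gene, the medians were 12.2 over inner exons, 30.5 over the last exon, 5.56 over introns and 5.48 over the first exon. Among members that touch a single part they were 12.2 over inner exons, 28.6 over the last exon, 1.60 over introns and 1.92 over the first exon. Among members with at least 1000 exon bases, a setting added after the values were seen, they were 11.5, 19.7, 2.52 and 1.43 in the same order. With principal transcripts, AL135999.1, C5orf66, AC006064.2 and ZRANB2-AS1 moved from inner exons to introns. No test was run over members, because genes counted in the same 2 libraries are not replicates.

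**Figure D2:**
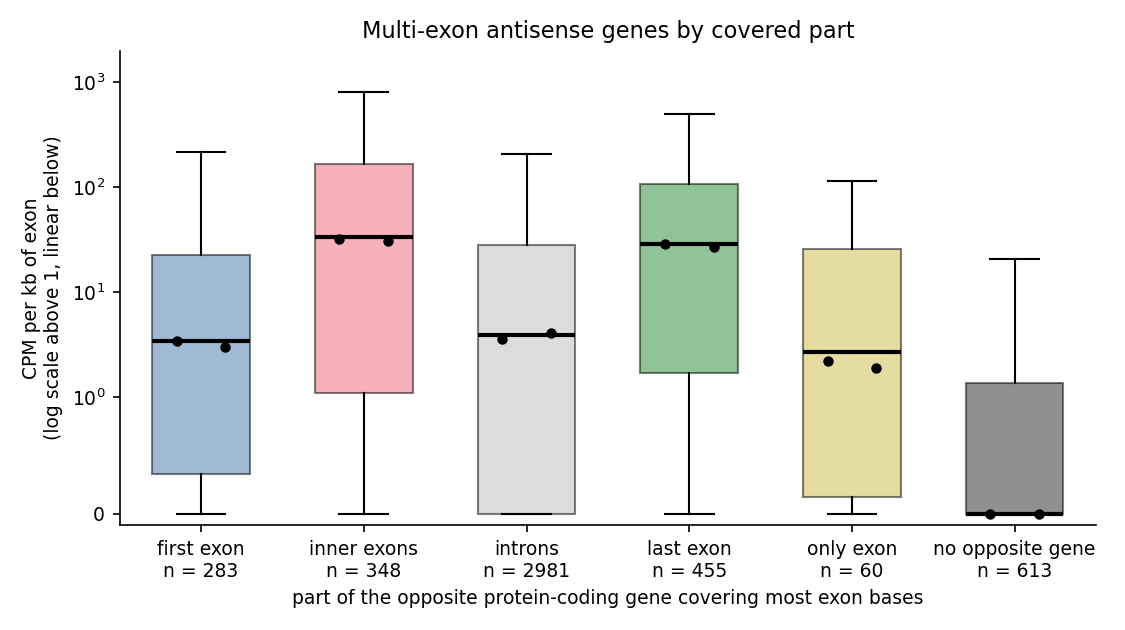
CPM per kb of exon (symmetric log axis, linear below 1) of the multi-exon antisense genes. They are grouped by the part of the opposite gene that covers more of their exon bases than any other part. Boxes span the quartiles, lines in them are medians, whiskers reach the 5th and 95th percentiles, and the 2 dots per box are the medians in replicate 1 and replicate 2. The medians over inner exons (33.8) and the last exon (28.5) lie above those over introns (3.94) and the first exon (3.44), and genes with no opposite gene have a median of 0.

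Members with an opposite protein-coding gene over their exons had a median of 5.58 CPM per kb, and 40.8% were detected, against a median of 0 and 6.20% detected for members without one. Members of both groups have introns and 3' splice sites of their own, and why the groups differ was not tested. Those without an opposite gene held 1938 and 2633 counts in total, 0.792% of the members' counts for 12.9% of the members. Of these 613, 36 had an opposite protein-coding gene over their introns and none over their exons, and 3 of the 36 were detected. The highest of the 613 were AATBC with 277 and 291 counts, AC105339.3 with 110 and 128, and AP000356.2 with 102 and 114.

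Within each part, members with the most counts differed in what they cover. Over the last exon, AC092069.1 (chromosome 19, 12944118 to 12944487, minus strand) had 1707 and 2018 counts with all 270 exon bases in the last exon of CALR, the gene of the endoplasmic reticulum chaperone calreticulin. This came to 5939 ± 470 CPM per kb (SD, n = 2), below the 8503 ± 634 of AC006064.4 opposite GAPDH. SAPCD1-AS1 came next in that group, with 977 and 1498 counts. Over the first exon, AL138963.3 led, and AC084125.1 had 479 and 678 counts opposite CYHR1. The merged first exon of TPT1 took in all 588 exon bases of AL138963.3 and also a 3' splice site, since merging joins neighbouring exons where 1 transcript keeps an intron, and the principal transcript placed that member mostly in introns.

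Over introns, the members with the most counts also reached into exons. Among members whose every exon base was intronic, AP001625.2 led with 1383 and 2055 counts. Its 575 exon bases lie in SLC37A1, a sugar phosphate transporter gene, 143 bases from the nearest 3' splice site. LIPC-AS1 had 496 and 762 counts within introns of the hepatic lipase gene LIPC, 2898 bases from a 3' splice site, and CELF2-AS1 had 532 and 646 within introns of CELF2, an RNA-binding protein of splicing, 972 bases away. As a group, the 1258 members with every exon base in opposite introns had a median of 2.23 CPM per kb, and the 256 with every exon base in opposite exons had 50.3. Over genes with 1 merged exon, H1FX-AS1 led with 561 and 595 counts opposite the linker histone gene H1FX. AP001625.2, LIPC-AS1 and CELF2-AS1 were chosen after their values were seen.

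Since U2AF2 binds at 3' splice sites, the number of opposite 3' splice sites inside the antisense exons was compared with the level. A site was counted where the last intron base lay in a merged exon of the member. Of the 4127 members with an opposite gene, 1129 covered 1 or more sites and 2998 covered none. The members with a site had a median of 23.4 CPM per kb (23.5 in replicate 1 and 23.0 in replicate 2), and those without had 3.61 (3.46 and 3.71). The ratio of these medians was 6.49 (6.79 in the first library, 6.20 in the second). The lower median rests on a few counts per gene, and among detected members the medians were 109 with a site and 41.9 without. Members with a site held 66.7% of the members' counts.

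The median was 3.61 CPM per kb with 0 sites, 18.1 with 1 site, 35.7 with 2 sites and 52.4 with 3 or more. Exons also lengthened along this series, with medians of 632, 781, 1063 and 3057 bases, and a longer member has more room for a site. The share of detected members was 33.8%, 56.9%, 62.8% and 70.3% in the same order. Among members with at least 1000 exon bases, the medians were 11.4 with a site and 1.24 without.

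The comparison was repeated within each part. Over genes with 1 merged exon, 3 members with a site had a median of 0.167 CPM per kb and 57 without had 3.58. Over introns, 790 members with a site had a median of 18.4 CPM per kb and 2191 without had 2.41, a ratio of 7.64. Over inner exons the medians were 68.8 for 189 members with a site and 15.6 for 159 without, a ratio of 4.41. Over the first exon they were 14.8 for 25 members with a site and 2.83 for 258 without, a ratio of 5.23. Over the last exon they were 34.8 for 122 members with a site and 26.9 for 333 without. The ratio was 1.29 (1.44 in replicate 1 and 1.33 in replicate 2), nearer to 1 than over introns, inner exons and the first exon. Upper quartiles over the last exon were 172 with a site and 83.8 without, and detected shares were 65.6% and 54.7%.

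Among members with no site inside, the level was then read against the distance from their exons to the nearest 3' splice site of the opposite gene. The median was 19.4 CPM per kb at 1 to 50 bases (164 members), 12.1 at 51 to 200 bases (292), 6.89 above 200 and up to 1000 bases (693), 3.58 above 1000 and up to 5000 bases (788) and 1.42 beyond 5000 bases (1009). Each library gave the same order. Members over introns had medians of 8.07, 6.54, 4.50, 2.34 and 1.33 over these 5 distances. Members over the last exon had 57.6, 53.9, 26.9 and 19.98 over the first 4, with 9 members at 7.77 beyond 5000 bases. The nearest 2 of these distances had no fixed order over the last exon, with 48.3 and 54.2 in replicate 1 and 64.6 and 50.98 in replicate 2. Members over inner exons had 46.5, 58.1, 12.8, 2.83 and 1.38, so there the second distance was the highest, with 17 to 52 members at each. AC006064.4, AC092069.1 and AP001625.2, at 41, 177 and 143 bases, are examples with high levels and no site inside. A read that only touches an exon with its end is counted, and read positions within a gene are not in the table.

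**Figure D3:**
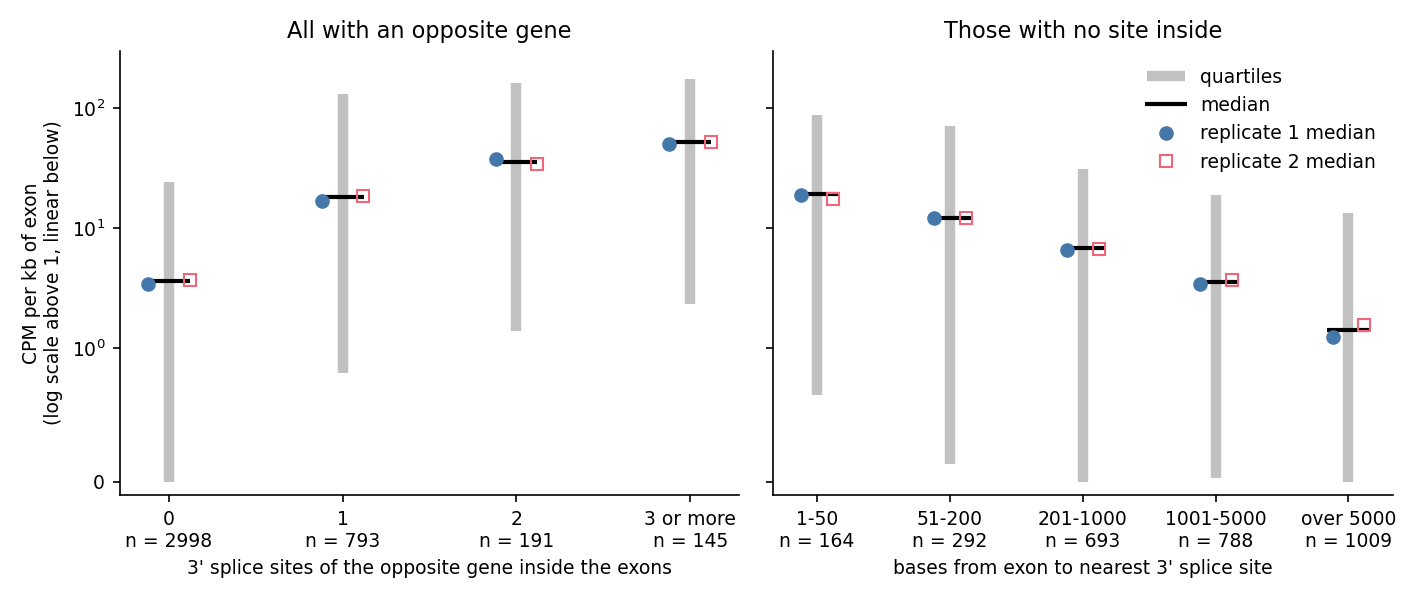
CPM per kb of exon (symmetric log axis, linear below 1) by the number of opposite 3' splice sites inside the exons (left) and, for members with none inside, by the distance in bases to the nearest one (right). Grey bars span the quartiles, black lines are medians, and filled circles and open squares are the medians in replicate 1 and replicate 2. Medians run from 3.61 with 0 sites to 52.4 with 3 or more, and from 19.4 within 50 bases to 1.42 beyond 5000 bases.

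Sequence was examined next. Windows of the opposite strand could be read from antisense transcripts at 1435 pairs of a member and a site, over 903 members, and 1420 of them (99.0%) ended their intron with AG. Pyrimidines made up a median of 75% of the 20 bases before the AG, with quartiles of 65% and 80%. Among the 587 members with exactly 1 site and a window, the median level was 60.1 CPM per kb where the tract held up to 60% pyrimidines (69 members), 14.8 for above 60% to 70% (137), 19.4 for above 70% to 80% (216), 14.1 for above 80% to 90% (143) and 0.797 for above 90% (22). More pyrimidines in the covered tract thus did not go with a higher level.

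Among members with an opposite gene, a run of 15 or more pyrimidines anywhere in the exons did not go with a higher median either. The 812 with such a run on the opposite strand alone had a median of 5.69 CPM per kb, and 519 with one on their own strand alone had 4.002. The 444 with both had 4.58 and 2352 with neither had 6.35. Detected shares did differ, at 42.1%, 38.5%, 52.0% and 38.8% in the same order. So did exon length, with medians of 906.5, 1103, 3059.5 and 564 bases. Among members with no opposite gene the median levels were 0.538, 0, 0.493 and 0 CPM per kb in the same order, all within the level that a few counts give. Of these members, 9.90%, 4.41%, 20.4% and 3.80% were detected. A run is a description of the letters and not a binding site.

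Members were then grouped by the gene they lie opposite, with lists of genes of splicing, of blood lineages and of abundant housekeeping functions. The 14 members opposite 12 housekeeping genes had the highest median, 588 CPM per kb. It was 3.22 for all members and 5.58 for all members with an opposite gene. Of the 14, 9 were detected (64.3%), against 40.8% of all members with an opposite gene. The 14 included AL133415.1 with 1696 and 2126 counts and VIM-AS1 with 1219 and 1380. Both lie opposite the intermediate filament gene VIM and so are not independent of each other. AC011603.2 had 1015 and 1327 counts opposite the tubulin gene TUBA1B. The list also held near-empty members, such as AL121972.1 with 7 and 5 counts over the first exon of the elongation factor gene EEF1A1. AC011603.2 and AL121972.1 were named after their values were seen.

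The 19 members opposite 17 blood transcription factor and lineage genes had a median of 96.2 CPM per kb. Of the 19, 13 were detected (68.4%), against 40.8% of all members with an opposite gene. After AL135960.1 opposite TAL1 came MEIS1-AS2, with 504 and 703 counts opposite the homeobox gene MEIS1, and GATA2-AS1, with 492 and 594 opposite GATA2, a transcription factor of blood stem and progenitor cells. GATA2 itself held 411 and 485 counts, and GATA2-AS1 covered none of its 3' splice sites. MYB-AS1, with 481 and 585 counts, lies over introns of the proto-oncogene MYB, and SENCR, with 279 and 367, over introns of FLI1, a factor of megakaryocytes. MYB-AS1 and SENCR were named after their values were seen.

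The 17 members opposite 16 splicing and RNA-binding genes had a median of 67.4 CPM per kb. Of the 17, 13 were detected (76.5%), against 40.8% of all members with an opposite gene. Among the highest were AL354733.3 with 785 and 1032 counts opposite HNRNPK, and MBNL1-AS1 with 585 and 861 opposite the splicing regulator MBNL1. HNRNPK itself held 6 and 2 counts. AC008735.2, named after its values were seen, lies over introns of U2AF2 itself and held 301 and 453 counts on 561 exon bases.

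Antisense RNAs known by name had long exons. The 34 found of a list of well-known ones had a median of 4520.5 exon bases, against 675 for all members, and a median of 2.20 CPM per kb, against 3.22. Of the 34, 16 were detected (47.1%), against 36.4% of all members. MCM3AP-AS1 led with 2085 and 2873 counts, with 6 opposite 3' splice sites inside its 7605 exon bases, and ZEB2-AS1 followed with 1085 and 1466 counts within ZEB2, a repressor gene. The 15 RNAs of the HOX clusters, which lie among the homeobox genes of body patterning, had a median of 2.83 CPM per kb and 7 were detected (46.7%). The highest were HOXB-AS1 with 143 and 160 counts, HOXA10-AS with 96 and 114, and HOXB-AS3 with 43 and 41. How much RNA the opposite genes make in HEL was not measured here, and its part in these levels was not tested.

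**Figure D4:**
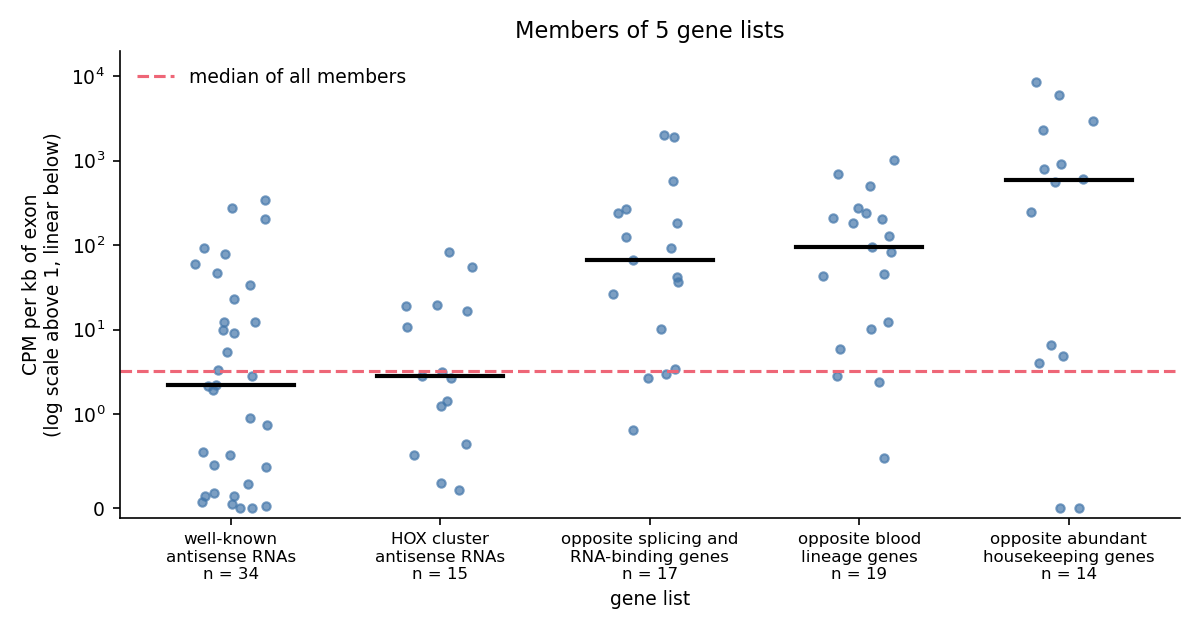
CPM per kb of exon (symmetric log axis, linear below 1) of the members in 5 gene lists, 1 point per antisense gene, mean of the 2 replicates, with the median of each list as a black line. The dashed line is the median of all members, 3.22, where members with an opposite gene had 5.58. Members opposite housekeeping genes have a median of 588 and run from 0 to 8503, and the named antisense RNAs and HOX cluster RNAs have medians of 2.20 and 2.83.

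Similar antisense and non-coding genes were set beside the members for each part. Over inner exons the median was 33.8 CPM per kb for the members, 46.2 for 75 single-exon antisense genes and 6.11 for 37 other multi-exon long non-coding genes. Over introns it was 3.94 for the members, 12.03 for 377 single-exon antisense genes and 1.15 for 515 other long non-coding genes. Over the last exon it was 28.5 for the members, 39.2 for 54 single-exon antisense genes and 8.71 for 73 other long non-coding genes. With no opposite gene the medians were 0 for the members, 0.567 for 95 single-exon antisense genes and 0 for 6073 other long non-coding genes. In each of these 3 classes the medians over inner exons and the last exon were above the median over introns, but the last exon was the higher of the pair in the other long non-coding genes. Whether the classes differ was not tested.

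The replicates were compared last, with an exact two-sided binomial test at the scaled library sizes, adjusted over all 8983 detected genes. It called 8 of the 1723 members tested, or 0.464%, where it called 0.501% of all genes. Of these, 4 were higher in replicate 2 (0.39% of all genes were called in this direction) and 4 in replicate 1 (0.111%). At an unadjusted exact p of at most 0.05 there were 171 of the 1723 members and 769 of all 8983 genes. Both shares lie above 0.05, the share expected where libraries differ by counting error alone, and why was not tested. Such a test sets 2 libraries of the same group side by side and takes in no more than counting error.

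EFCAB14-AS1 had 195 and 381 counts, a ratio of replicate 2 to replicate 1 of 1.48 and an adjusted exact p of 0.00278. AC016727.1, opposite the nuclear export receptor gene XPO1, had 442 and 767 counts, a ratio of 1.31 and an adjusted exact p of 0.00178. OCIAD1-AS1 had 781 and 1293 counts, with a ratio of 1.25, and ZRANB2-AS1 a ratio of 1.17. Of the 4 lower in replicate 2, 3 were H1FX-AS1, VIM-AS1 and AC006064.4, with ratios of 0.802, 0.856 and 0.900 and adjusted exact p values of 0.0413, 0.0226 and 0.000753. Of the 885 members with at least 50 counts in each library none differed by more than 2-fold, and their ratios ran from 0.637 to 1.62 with a median of 1.00.

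**Figure D5:**
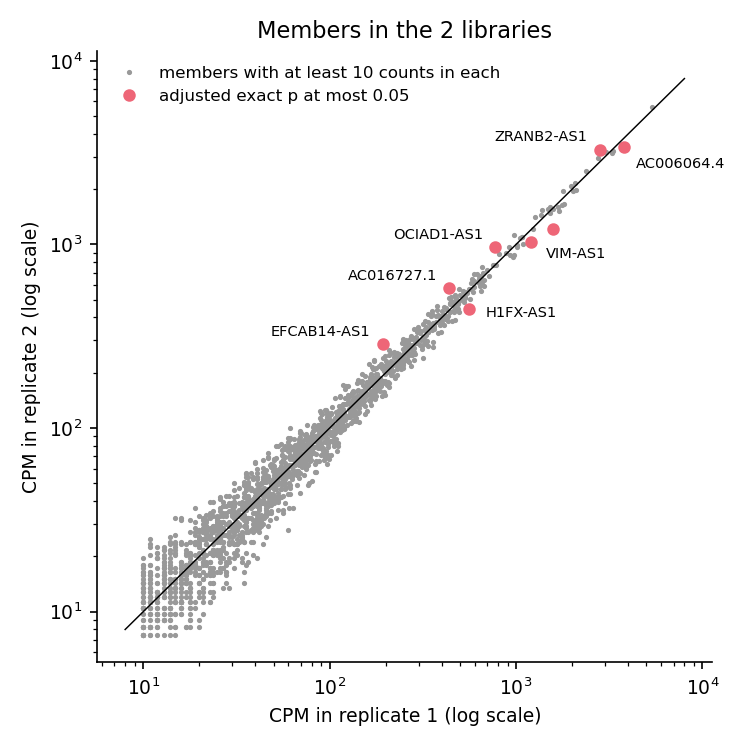
CPM in replicate 1 (x axis) and replicate 2 (y axis), both on log scales, for the 1723 detected multi-exon antisense genes, with the line of equal levels. Larger points are the 8 genes called by the exact test, 4 above the line and 4 below it.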

How the data were processed

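The authors deposited whole-number raw counts of reads per gene. The tools cutadapt and STAR 2.7.0f and the build GRCh38.p10 are named per the submitters' processing notes. Not given in the sources used here are the annotation release, the strand that was counted, and whether duplicates were removed or molecular identifiers used. Counting error exceeds that of a binomial test where duplicate reads remain. Tallies of reads on no gene were left out of library sizes.

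Of 58347 genes, 58084 matched GENCODE 29 by identifier without version. Where several opposite genes overlap a base, exons took precedence over introns, and first and last exons over inner ones. Library sizes were scaled by TMM in edgeR 4.0.16 (R 4.3.3) on genes that reach 10 counts in both libraries, with DESeq2 1.42.0 size factors as an alternative. With 1 group there was no contrast for edgeR to test. The replicate test used scipy 1.17.1 with Benjamini-Hochberg adjustment at 0.05 and was tested on simulated data. Other steps used Python 3.11.15, numpy 2.4.6, pandas 2.3.3 and matplotlib 3.10.9.

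The members, lists and groupings were chosen with earlier results of these data known. Named genes were the 15 members with the highest CPM, the 3 highest in each part and each list, the largest replicate differences past the threshold, and their opposite genes. Other genes are marked, and some that the rule gave, among them the largest difference lower in replicate 2, are not reported here. The p values set the difference between these 2 libraries against counting error. Alternatives were the size factors, count filter, principal transcripts, overlapping same-strand genes, the number of opposite genes, single parts, site margin, exon length and each replicate alone.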

Additional observations from a re-analysis of the deposited data

How the results depend on the processing

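No paired analysis was possible because the 2 libraries form 1 group. Under every alternative run, medians over inner exons and the last exon stayed above those over introns and the first exon, and members with an opposite 3' splice site stayed above those without. The sizes moved. Medians below are in CPM per kb, for first exon, inner exons, introns, last exon and sole exon in that order unless named. Without replicate 1 or replicate 2, they ranged from 2.97 to 3.45, 30.8 to 32.1, 3.60 to 4.10, 27.1 to 28.98 and 1.91 to 2.23. With at least 10 counts in each library they were 46.5, 145, 46.3, 79.9 and 69.4, and 25.1 with no opposite gene. With principal transcripts they were 5.48, 12.2, 5.56, 30.5 and 2.53, and 0.308 with no opposite gene. Without members that overlap a same-strand gene they were 4.07, 37.8, 3.996, 29.03 and 3.93. With exactly 1 opposite gene they were 3.06, 26.5, 3.27, 26.9 and 2.77. With a single part touched they were 1.92, 12.2, 1.60, 28.6 and 2.23. With at least 1000 exon bases, added after the data were seen, they were 1.43, 11.5, 2.52, 19.7 and 1.54, and 0.298 with no opposite gene.

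Medians with a site and without one were 109 and 41.9 with at least 10 counts in each library, 25.2 and 3.84 with principal transcripts, 25.1 and 3.83 without same-strand overlaps, 21.6 and 3.29 with exactly 1 opposite gene, 23.0 and 3.29 with sites within 50 bases, and 11.4 and 1.24 with at least 1000 exon bases. Leaving out a replicate gave 23.0 to 23.5 with a site and 3.46 to 3.71 without. The members' share of counts was 24.4% to 24.8% in single replicates, 14.5% for members with 3 or more merged exons and 22.3% without those that overlap a same-strand gene. DESeq2 size factors left all medians within the replicate spread and called 9 members between replicates, and testing every gene with at least 1 count called 11, against 8. The causes of these moves were not tested. Medians of a few CPM per kb rest on a few counts per gene. Among them are the main values of 3.94 over introns, 3.44 over the first exon and 3.61 without a site.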
